A study of Homo sapiens with 12 samples.

Results

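The genes described here serve antigen presentation by MHC class I, the surface complex that shows peptides from inside a cell to CD8 T cells and natural killer cells. The 9 genes HLA-B, HLA-C, HLA-E, HLA-F, B2M, TAP1, TAP2, TAPBP and NLRC5 were taken by symbol, and all 9 had values in both deposited tables, out of 16875 symbols found in either table. The libraries came from RCH-ACV, a human B-cell precursor acute lymphoblastic leukemia line that is pre-BCR+, meaning that it expresses the pre-B-cell receptor. Dasatinib-resistant sublines had been selected in rising concentrations of the kinase inhibitor dasatinib (its targets include the ABL and SRC families) up to 1 µM, and dasatinib-sensitive sublines were kept in vehicle (0.1% DMSO). The 4 groups were resistant clone 2, sensitive clone 2, resistant clone 1 and sensitive clone 1, each with 3 libraries from RNA isolated at separate time points, 12 in all.

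Each clone table holds 1 level per gene, the mean over the 6 libraries of that clone, resistant and sensitive together, of gene counts after division by size factors (the authors' mean normalized count). The other numeric columns of the tables hold the authors' own comparison of resistant with sensitive cells and were not used here, so the effect of resistance on these genes is not described. A mean of this kind has no SD and no number of replicates, and no test was run on it. The sample titles carry the letter B in clone 2 and A in clone 1, and what this letter stands for is not stated. Each table also had its own normalization. Clone, letter and normalization therefore cannot be told apart in any contrast of the tables. The depth of single libraries is unknown. The means summed to 24561485 over 16848 genes in clone 2 and to 19108037 over 15612 genes in clone 1.

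In a class I molecule, a heavy chain encoded by an HLA gene pairs with β2-microglobulin, the product of B2M. Peptides cut by the proteasome are carried into the endoplasmic reticulum by the transporter made of TAP1 and TAP2. Tapasin, the product of TAPBP, holds the empty heavy chain close to that transporter while a peptide is loaded. NLRC5 is the transactivator that is recruited to the promoters of class I genes. It acts through a conserved promoter module whose X2 box resembles a cyclic AMP response element and whose Y box holds a CCAAT sequence.

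The promoters of 4 members are shown because they include the most abundant heavy chain, HLA-B, its close relative HLA-C, the least abundant one, HLA-F, and the shared light chain, B2M. They are the 250 bases before the gene start in RefSeq (GRCh38.p14), each written 5′ to 3′ on the strand of its gene. HLA-B lies at chr6:31357180-31357429 on the minus strand, HLA-C at chr6:31272093-31272342 on the minus strand, HLA-F at chr6:29723184-29723433 on the plus strand and B2M at chr15:44711267-44711516 on the plus strand. Capitals mark matches, on either strand, to CCAAT, to TGACG (the first letters of a cyclic AMP response element), to GAAANNGAA (the core of an interferon-stimulated response element) and to GGGATTCCC (the core of a κB site).
HLA-B: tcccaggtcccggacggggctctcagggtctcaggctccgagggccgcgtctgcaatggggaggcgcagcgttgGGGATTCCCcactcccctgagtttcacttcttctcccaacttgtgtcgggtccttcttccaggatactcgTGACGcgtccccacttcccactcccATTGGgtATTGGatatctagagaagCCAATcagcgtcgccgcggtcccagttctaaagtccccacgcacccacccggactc
HLA-C: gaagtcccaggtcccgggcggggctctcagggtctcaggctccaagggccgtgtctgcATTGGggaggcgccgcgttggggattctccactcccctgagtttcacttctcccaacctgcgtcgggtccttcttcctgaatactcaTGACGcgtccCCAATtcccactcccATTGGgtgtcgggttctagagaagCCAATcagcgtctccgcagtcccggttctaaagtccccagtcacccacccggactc
HLA-F: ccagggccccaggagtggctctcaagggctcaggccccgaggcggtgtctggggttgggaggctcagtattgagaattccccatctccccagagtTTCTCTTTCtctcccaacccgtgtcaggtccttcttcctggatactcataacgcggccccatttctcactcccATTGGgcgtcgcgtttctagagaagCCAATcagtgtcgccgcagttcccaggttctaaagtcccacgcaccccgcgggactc
B2M: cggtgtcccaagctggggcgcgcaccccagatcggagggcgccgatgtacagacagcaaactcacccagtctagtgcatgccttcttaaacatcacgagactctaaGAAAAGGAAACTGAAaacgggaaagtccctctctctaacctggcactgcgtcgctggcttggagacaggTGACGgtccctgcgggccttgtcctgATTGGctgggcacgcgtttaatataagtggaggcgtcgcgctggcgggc

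Across the 7 members with a RefSeq promoter (all but HLA-E and NLRC5), CCAAT was found in HLA-B, HLA-C, HLA-F, B2M and TAP1, against 33.0% of 27305 promoters of the same length. TGACG was found in HLA-B, HLA-C, B2M and TAP2, against 21.7% of all promoters. HLA-B and HLA-C held it at almost the same place, 106 and 105 bases before the start, and B2M held it 75 bases before the start. Both motifs stood together in 3 of the 7 promoters (HLA-B, HLA-C and B2M) and in 7.62% of all promoters. GAAANNGAA was present in HLA-F, B2M, TAP1, TAP2 and TAPBP, against 7.06% of all promoters, and in pairs in B2M, TAP1 and TAPBP. GGGATTCCC matched HLA-B and 95 of all promoters (0.348%), while TTCNNNGAA, the core of a gamma-activated site, matched none of the 7 members and 6.78% of all promoters. Only exact matches were counted, so a gene without a match, such as HLA-B or HLA-C for GAAANNGAA, may still hold a variant of that element. Matches to short motifs are a description of the reference sequence and were not tied to the levels below.

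**Figure D1:**
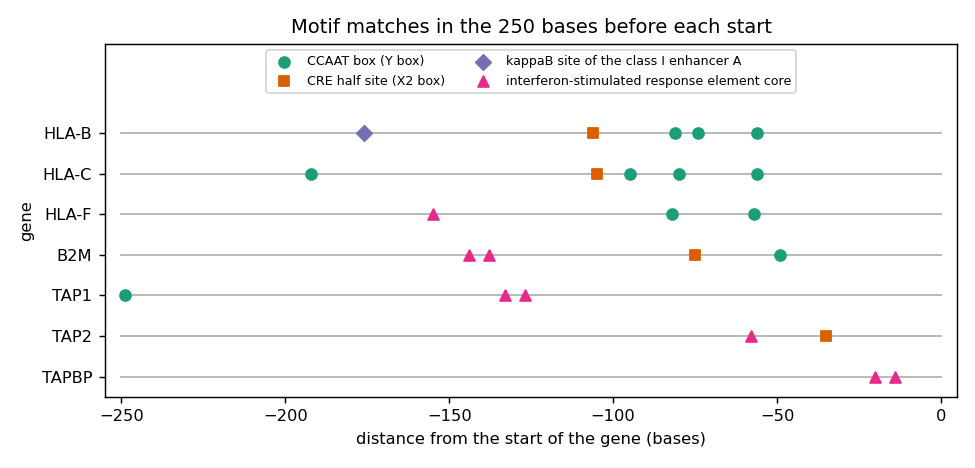
Motif matches in the 250 bases before the start of the 7 members with a RefSeq promoter. The x axis is the distance from the gene start in bases, each row is a gene and each symbol marks the leftmost base of a match on either strand. The TGACG matches of HLA-B and HLA-C stand at -106 and -105.

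B2M and HLA-B were the most abundant members in both clones, and HLA-F was the least abundant. B2M had an authors' mean normalized count of 12712 in clone 2 and 8640 in clone 1, higher than 98.5% and 98.0% of the genes listed. HLA-B, a classical heavy chain that presents peptides to CD8 T cells, had 7606 in clone 2 and 4875 in clone 1. HLA-C, a classical heavy chain that is also a ligand of killer immunoglobulin-like receptors, had 2591 in clone 2 and 1732 in clone 1. HLA-E, the nonclassical heavy chain recognized by NKG2A receptors, had 2914 in clone 2 and 2332 in clone 1. These 4 genes were above 83% of the genes of either table, the lowest of them being HLA-C in clone 1 at 83.6%.

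HLA-F, a nonclassical heavy chain, stood apart from the other members. Its mean was 123.9 in clone 2 and 59.99 in clone 1, higher than 34.4% and 25.0% of the genes listed. Among genes with a mean of at least 50 alone, it was higher than 10.2% in clone 2 and 1.9% in clone 1. The clone 1 value is low by construction, since 59.99 lies close to that cutoff. It was the only member under the median of all genes, which was 442.3 in clone 2 and 406.2 in clone 1. The other 8 members were above that median in both tables, and the median of the 9 members was 2591 in clone 2 and 1790 in clone 1.

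The genes of peptide transport and loading lay between these extremes. TAPBP had 2812 in clone 2 and 2284 in clone 1, and TAP2 had 2314 in clone 2 and 1790 in clone 1. TAP1, the partner of TAP2 in the transporter, was lower, with 1108 in clone 2 and 743.7 in clone 1. NLRC5, the regulator, had 1442 in clone 2 and 904.3 in clone 1, higher than 76.0% and 69.0% of the genes listed. Together the 9 genes made up 0.137% of the summed means in clone 2 and 0.122% in clone 1.

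**Figure D2:**
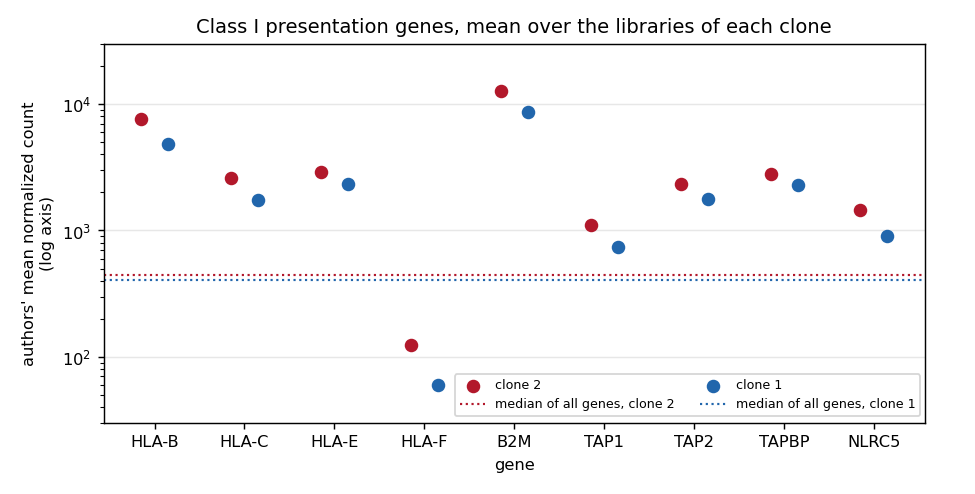
Authors' mean normalized count (log axis) of the 9 members, with 1 point per clone (clone 2 red, clone 1 blue) and dotted lines at the median of all genes of each table. Each point pools 6 libraries and has no error bar; HLA-F is the only member below the lines, at 123.9 in clone 2 and 59.99 in clone 1.

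Because longer transcripts collect more reads, levels of different genes were compared per 1000 bases of coding length. On that scale B2M reached 35310 in clone 2 and 24000 in clone 1, which was 2.92 times the sum of the 4 heavy chain genes in clone 2 and 2.92 times that sum in clone 1. This excess rests on the length used: per 1000 bases of whole transcript, a scale chosen after seeing the data, B2M was 0.958 times that sum in clone 2 and 0.975 times in clone 1. HLA-B followed with 6985 in clone 2 and 4477 in clone 1. It made up 57.7% of the heavy chain sum in clone 2 and 54.4% in clone 1, while HLA-F made up 0.770% and 0.548%. HLA-B was 3.02 times HLA-C in clone 2 and 2.89 times in clone 1, and 74.9 times HLA-F in clone 2 and 99.2 times in clone 1.

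The order of the 9 genes per coding length was the same in both clones: B2M, HLA-B, HLA-E, HLA-C, TAPBP, TAP2, TAP1, NLRC5 and HLA-F. NLRC5, whose coding part of 5601 bases is the longest of the 9, stood at 257.4 in clone 2 and 161.4 in clone 1. TAP2 exceeded TAP1 2.40-fold in clone 2 and 2.77-fold in clone 1. Which neighbors in the order differ beyond their spread could not be judged without values per library. The coding part of B2M is 360 bases of a transcript of 1705, so the choice of length matters most for this gene. Per 1000 bases of whole transcript, B2M was at 7456 in clone 2 and 5067 in clone 1, against 4917 and 3151 for HLA-B. On that scale TAP2 exceeded TAP1 only 1.09-fold in clone 2 and 1.25-fold in clone 1, and HLA-E moved to the fifth place in both clones. The order also differed between the clones there, with HLA-C before TAPBP in clone 2 and after it in clone 1, and without division by length HLA-C stood before TAP2 in clone 2 and after it in clone 1.

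**Figure D3:**
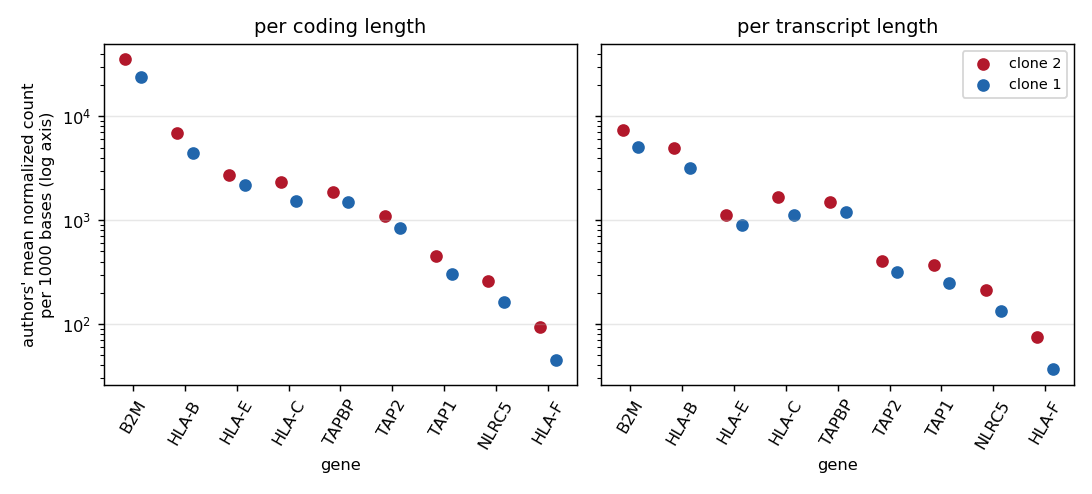
Authors' mean normalized count per 1000 bases (log axis) of the 9 members, divided by coding length (left) and by transcript length (right), clone 2 in red and clone 1 in blue. B2M in clone 2 is at 35310 per coding length and 7456 per transcript length and is the highest on both scales, and HLA-F is the lowest on both.

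Heavy chain genes resemble each other, and how the authors assigned reads that match more than 1 gene is not given in the sources used here. In the GENCODE 29 transcripts, 2.54% of the stretches of 50 bases in HLA-B, 6.71% in HLA-C, 5.13% in HLA-E and 1.70% in HLA-F also occurred in another gene. At 100 bases these shares were 0% in HLA-B, 0.275% in HLA-C, 0.600% in HLA-E and 0% in HLA-F. B2M, TAPBP and NLRC5 shared no stretch of either length. TAP2 shared 35.6% of its stretches of 50 bases, all 2005 of them with 1 other gene of that annotation. Its level therefore depends on how reads that match both were counted. TAP1 shared 1.07% of its stretches of 50 bases, all 31 of them with the same gene. Only sequences were compared here, and the positions of these genes were not. The comparison uses reference alleles, and the HLA alleles of the cell line were not examined. By position, RefSeq lists genes that overlap members, such as HLA-F-AS1 at HLA-F, PSMB8-AS1 at TAP1 and RGL2 at TAPBP, and none at TAP2. The library kit was stranded, but how reads in such overlaps were counted is not given. How far these genes add to the levels of the members is therefore unknown.

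In the ratio of clone 2 over clone 1, 6 of the 9 genes stood above the central 50% of well expressed genes and 3 lay within it. By construction, the well expressed genes outside that range split evenly above and below it. Means in clone 2 were divided by those in clone 1 and by 1.292, the median ratio over 13917 shared genes with a mean of at least 10 in both tables. HLA-F had the highest ratio, 1.60, followed by NLRC5 with 1.23 and HLA-B with 1.21. HLA-C had 1.16, TAP1 had 1.15 and B2M had 1.14. TAP2 stood at 1.00, HLA-E at 0.968 and TAPBP at 0.953. HLA-F had a mean of 59.99 in clone 1, near the lower limit of 50 for well expressed genes, most of which had higher means.

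On the log2 scale the members ranged between -0.07 (TAPBP) and 0.68 (HLA-F), with a median of 0.21. Over the 11890 shared genes with a mean of at least 50 in both tables, the median was 0.00, the central 50% lay between -0.09 and 0.09 and the central 90% between -0.29 and 0.29. HLA-F, NLRC5, HLA-B, HLA-C, TAP1 and B2M were above this central 50%, and HLA-F and NLRC5, at 0.68 and 0.30, were also above the central 90%. NLRC5 was only just above that limit of 0.29. Over all 15582 shared genes, the central 50% lay between -0.11 and 0.11, and the same genes were above it. The central 90% of all shared genes lay between -0.54 and 0.50, with HLA-F above it and NLRC5 inside it. HLA-E, TAP2 and TAPBP lay within the central 50%, at -0.05, 0.00 and -0.07. How these ratios compare with the spread between libraries of a clone was not tested, and since each mean pools resistant and sensitive cells, a change in either of them would move it.

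**Figure D4:**
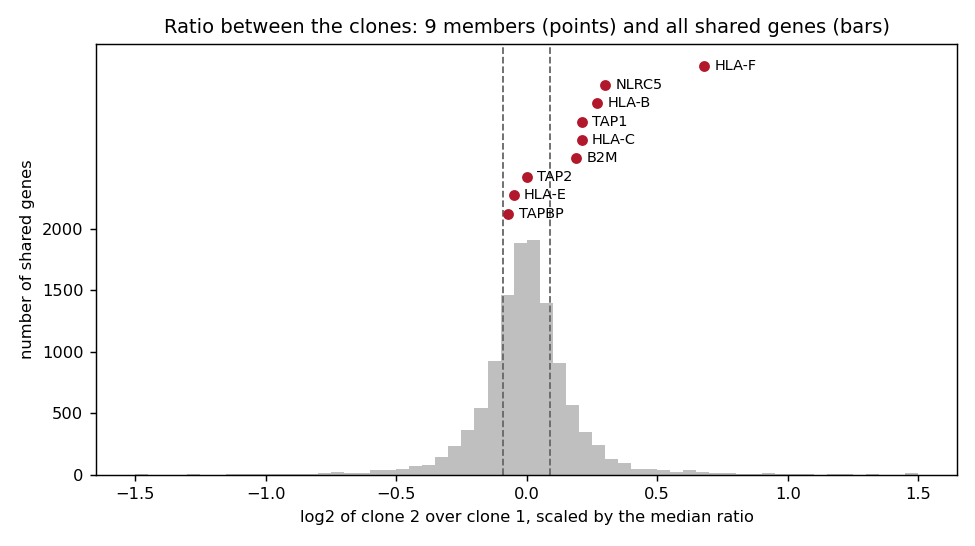
Log2 ratio of clone 2 over clone 1 after scaling by the median ratio (x axis), for the 9 members (red points, stacked for legibility) and for the 11890 shared genes with a mean of at least 50 in both tables (gray bars, number of genes, values beyond 1.5 drawn at the edge). Dashed lines bound the central 50%, -0.09 to 0.09; HLA-F lies farthest out at 0.68, and HLA-E, TAP2 and TAPBP lie between the lines.

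Other genes of the class I pathway were followed in 4 lists of 42 genes, 40 of which had a value in at least 1 table. All 9 genes of peptide loading and trimming were listed in both tables, and 9 in clone 2 and 8 in clone 1 were at or above the median of all genes. The chaperone CALR had 24083 in clone 2 and 20169 in clone 1, the chaperone CANX 19614 and 15053, and the disulfide isomerase PDIA3 11190 and 8378. These are general folding factors of the endoplasmic reticulum, and their scaled clone ratios were 0.924, 1.01 and 1.03. The median log2 ratio of the list was -0.02.

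All 6 immunoproteasome and proteasome activator genes were above the median of all genes in both clones. Their most abundant members were the activator subunits PSME3, with 6930 in clone 2 and 5445 in clone 1, PSME1, with 5734 and 4063, and PSME2, with 3701 and 2876. The scaled clone ratios of these 3 genes were 0.985, 1.09 and 0.996. The inducible catalytic subunits, named after their values were seen, had ratios of 1.11 (PSMB8), 1.16 (PSMB9) and 1.21 (PSMB10).

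The 14 regulators of class I and related promoters were all listed, with a median mean of 1496 in clone 2 and 1239 in clone 1. EZH2, a histone methyltransferase of the repressive Polycomb complex, had 3607 in clone 2 and 2865 in clone 1, NFYA, a subunit of the CCAAT-binding factor, 2852 and 2442, and RFX5, which binds the X box, 2420 and 1781. Their scaled ratios were 0.975, 0.904 and 1.05. CIITA, the class II counterpart of NLRC5, was also named after its value was seen. Its ratio of 0.688, with means of 933.4 in clone 2 and 1050 in clone 1, ran opposite to the 1.23 of NLRC5.

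A list of further nonclassical class I genes and NKG2D ligands, which holds neither HLA-E nor HLA-F, was mostly weak. Of its 13 genes, 11 were listed in clone 2 and 10 in clone 1, with medians of 34.76 and 46.96. These medians cover different genes, and the median scaled log2 ratio of the 10 genes listed in both was -0.03. In each of the clones, 1 gene was above the median of all genes. That gene was MICB, a stress ligand of the NKG2D receptor, with 861.9 in clone 2 and 714.9 in clone 1. MR1, which presents vitamin metabolites to T cells, had 345.1 and 234.8, and MICA, the relative of MICB, had 236.7 and 182.3. CD1D was listed in clone 2 alone, at 1.648, which is below the lowest mean listed in clone 1, 2.522. Its absence from clone 1 is therefore not a difference between the clones that can be read from these means.

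The labelled cell type was checked against marker genes. All 10 B-cell precursor markers were above the median of all genes in both clones, between 2487 and 13027 in clone 2 and between 1828 and 10412 in clone 1, with DNTT and IGLL1 the highest. Of 4 T cell markers, CD8A was listed in clone 2 at 2.336 and none was listed in clone 1. The 4 myeloid markers summed to 799.5 in clone 2 and 636.6 in clone 1, of which CSF1R made up 767.6 and 614.5, while CD14 had 4.059 and 2.820. Of the 4 stromal and epithelial markers, COL1A1 had 213.8 in clone 2 and 144.9 in clone 1, and KRT8 was listed in clone 2 at 1.159. The lowest mean listed was 1.135 in clone 2 and 2.522 in clone 1. CD8A and KRT8 were below the latter, so their absence from clone 1 cannot be read as a difference.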

How the data were processed

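RNA of 12 libraries (RCH-ACV, 2 clones, resistant and sensitive sublines) was prepared by the authors with a column kit and a stranded mRNA kit. Per the submitters' processing notes, the build was hg19 and the tools included DESeq2, FastQC 0.10.1, bedtools 2.19.0, Picard 1.107, SAMtools and BWA (0.7.7-r441 and 0.6.2-r126), with no role stated for any of them. How reads were assigned to genes (annotation, counter, strand, read length) is not given in the sources used here. The value used is a signal that the authors deposited, 1 mean per gene over all 6 libraries of each clone, from counts divided by size factors. The remaining columns of each table (fold changes, their errors, test statistics and p-values of resistant against sensitive cells, with a label of direction) hold the authors' own comparison and were not used. A symbol shared by 2 rows of each file was not matched, and 22 symbols in clone 2 and 21 in clone 1 had the form of a date. No member was affected.

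Percentiles are the percent of all genes of a table with a lower mean. The clones were scaled by the median ratio over shared genes with a mean of at least 10. The calculation was checked on data simulated from clone 1 with a known factor, random noise and some genes changed. Those data do not model separate normalizations or a broad shift between the clones, so only the arithmetic was checked. Coding and transcript lengths came from GENCODE 29, from the protein-coding transcript of each gene with the longest coding part, in place of RefSeq protein lengths, which were planned. Promoters came from RefSeq (GRCh38.p14), a later build than hg19, and were matched by symbol. All 9 members were named, with the 3 genes of each other list that had the highest mean over both clones after scaling and genes listed in 1 table. The members and lists were chosen with earlier results of these data known. Python 3.11.15, numpy 2.4.6 and pandas 2.3.3 were used.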

Additional observations from a re-analysis of the deposited data

How the results depend on the processing

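No paired analysis was possible because each table holds 1 pooled mean per gene and no values per library, and for the same reason no replicate could be left out and no fit of resistant against sensitive cells was made. With no replicate spread, a value was taken as equal when it moved by no more than 10%. The median clone ratio of the members, 1.15, was 1.49 with no scaling, and all 9 single ratios also moved by more than 10% then, which the scaling factor of 1.292 brings about by construction. It was 1.16, 1.16 and 1.15 when scaled by the summed means, with no filter and with a mean of at least 50. The highest member over the lowest, per coding length 378.8 in clone 2 and 531.7 in clone 1, was 102.6 and 144.0 without length and 98.4 and 138.1 per transcript length, the last chosen after seeing the data. The median percentile of the members, 87.3 in clone 2 and 84.2 in clone 1, was 85.0 and 82.4 among genes with a mean of at least 10 and 82.6 and 79.4 with at least 50. Single members moved more: HLA-F, at 34.4 and 25.0 over all genes, was at 22.6 and 16.3 with at least 10 and at 10.2 and 1.9 with at least 50, where TAP1 was at 58.9 and 52.6 and NLRC5 at 67.2 and 59.4. Among the other lists, the nonclassical genes and NKG2D ligands moved to median percentiles of 10.7 in clone 2 and 13.5 in clone 1 with a mean of at least 10, against 24.3 and 22.5 over all genes, because fewer weak genes then form the ranking. HLA-F has the lowest mean of the members, so counting error weighs most on its ratio, but by how much is unknown without the depth.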
